A study of Bos taurus with 6 samples.

Results

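Transcripts of 8 genes of the cell death machinery and of its p53 arm were followed in single bovine morulae treated with an inhibitor of the enzyme MAT2A. They are CHEK2, FAS, BAX, BAD, BID, CASP6, MCL1 and BCL2L1, taken by gene symbol, and all 8 were found among the 13185 symbols kept in the series. MAT2A-inhibited embryos received 20 µM FIDAS-5, which blocks the step that joins methionine to ATP and yields S-adenosylmethionine, the methyl donor of the cell. The inhibitor was present from 72 h (day 3, embryos of 8 to 16 cells) until 144 h (day 6) after fertilization. Control embryos received 0.1% DMSO, the vehicle of the inhibitor, over the same time, and the DMSO content in the inhibitor group is not given by the labels. Embryos of both groups were made by fertilization in vitro and kept at 5% oxygen in a semi-defined medium with bovine serum albumin. Each group held 3 libraries, each from 1 morula, made from polyA RNA with the SMART-Seq HT PLUS kit for low input. Whether the embryos of a group shared a culture is not given by the labels. The p-values thus reflect only how much these embryos varied, and part of that may be technical.

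Apoptosis is run by caspases, proteases that wait in the cell as inactive precursors. In the mitochondrial route, BAX and BAK1 open the outer mitochondrial membrane and release cytochrome c, which assembles with APAF1 and activates CASP9. MCL1 and BCL2L1 hold BAX and BAK1 in check, and small proteins with a single BH3 domain, such as BAD and BID, press against that restraint. In the other route, the receptor FAS recruits FADD and CASP8 at the cell surface, and cleaved BID links both routes. The p53 pathway, which CHEK2 feeds after DNA damage, raises FAS and BAX among its targets. Much of this control lies in protein cleavage, binding and phosphorylation, which transcript levels do not show. In preimplantation embryos of mammals, single dying cells are a regular finding from the morula stage on.

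Levels are in FPKM, fragments scaled by gene length and library depth, so levels of different genes can be compared per length. Each fold change is a difference of group means of log2(FPKM + 1), MAT2A-inhibited minus control, a scale on which low genes appear to change less than they do. The libraries held between 46500000 and 59900000 fragments, worked out from the spacing of the confidence bounds. The transcript of the inhibited enzyme, MAT2A, had 91.4, 53.2 and 70.5 FPKM in MAT2A-inhibited morulae and 74.8, 79.2 and 74.2 FPKM in controls, and its log2 fold change of -0.12 ± 0.24 (SE, limma adjusted p = 0.914) was 0.08 without MAT2A-inhibited morula 2. This transcript does not measure the activity of the enzyme, and how it responds to the inhibitor was not tested apart, so it does not check the labels. Of 7 embryo markers, POU5F1 was at 254.8 FPKM or more in every library and its groups overlapped. DPPA3 was between 453.5 and 574.5 FPKM in MAT2A-inhibited morulae and between 661 and 881 FPKM in controls, and NANOG between 1.16 and 1.88 FPKM in MAT2A-inhibited morulae and between 2.54 and 20.3 FPKM in controls. SOX2 was between 45.2 and 50.8 FPKM in MAT2A-inhibited morulae and between 27.6 and 41.5 FPKM in controls, so these 3 did not overlap between the groups, and none passed the test. The epithelial markers were uneven within both groups, with CDH1 listed at 0 in MAT2A-inhibited morula 1 and KRT8 and KRT18 at 4.49 and 8.67 FPKM in control 2. The 10 cumulus and stromal markers summed to between 2.58 and 3.58 FPKM in MAT2A-inhibited morulae and between 7.68 and 18.3 FPKM in controls, with COL3A1 and PTX3 listed at 0 in all 6. DCN supplied 11.0 FPKM of the highest control sum, that of control 2. Sperm markers summed to between 11.7 and 15.5 FPKM in MAT2A-inhibited morulae and between 5.60 and 14.1 FPKM in controls, with AKAP4 and ODF1 at 0, and PTPRC of white blood cells was at most 0.00464 FPKM. HBA of red blood cells was between 80.1 and 109.8 FPKM in MAT2A-inhibited morulae and between 63.1 and 132 FPKM in controls, with HBB at most 1.72 FPKM. The part of these other cells in the results was not tested. MAT2A-inhibited morulae 2 and 3 had 38.2 and 107 FPKM of the Y-linked gene EIF1AY, which was listed at 0 in the other 4 libraries, so both embryos with Y-linked transcripts belong to the inhibitor group.

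None of the 8 genes passed the test, and 6 of 8 had a log2 fold change above 0. The 3 values of each group stood fully apart for BAD and BID, which were higher in every MAT2A-inhibited morula, and for CASP6, which was lower in every one. Limma adjusted over all 7319 tested genes called 0 of the 8 genes at the threshold of 0.05, and 0 had an unadjusted p below 0.05. Over all tested genes 0.041% passed after adjustment, 6.64% had an unadjusted p below 0.05 and 54.2% had a log2 fold change above 0. Groups that did not overlap were found for 13.4% of all tested genes, 8.27% with higher and 5.18% with lower values in MAT2A-inhibited morulae. The median log2 fold change of the 8 genes was 0.48, against 0.04 over all tested genes. Fewer cells of a type and less RNA per cell cannot be told apart in libraries of whole embryos. All 8 genes passed the filter on low values, and each had 1 row with an accepted status in every library.

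**Figure D1:**
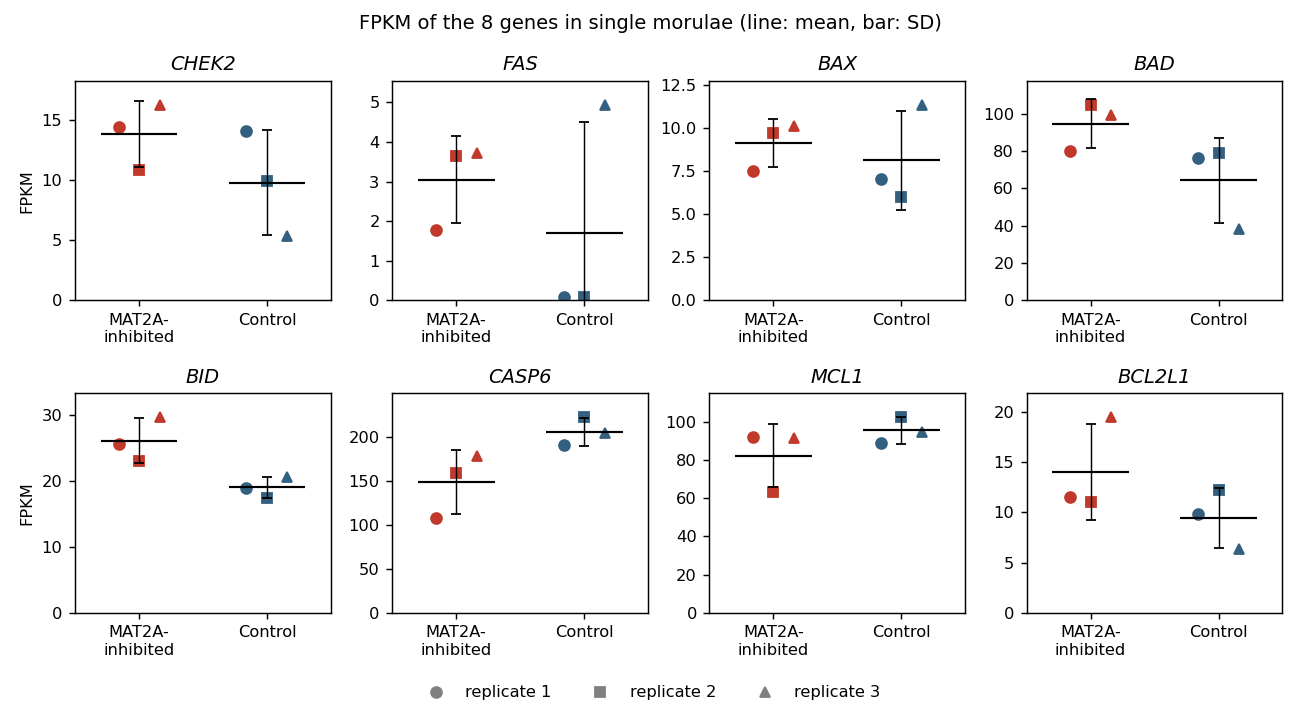
FPKM of each of the 8 genes (vertical axes, linear, from 0) in 3 MAT2A-inhibited and 3 control morulae, 1 point per embryo, with the group mean as a line and the SD as a bar. CASP6 lies at 178 FPKM or below in MAT2A-inhibited morulae and at 190.0 FPKM or above in controls, and in FAS 2 controls lie near 0.

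CASP6 encodes an effector caspase that cleaves nuclear lamins. It lies on bosTau8 chromosome 6 from 16847111 to 16867962. MAT2A-inhibited morulae 1, 2 and 3 had 107, 158 and 178 FPKM of CASP6, and controls 1, 2 and 3 had 190.0, 222 and 204 FPKM. The highest MAT2A-inhibited value lay 11.8 FPKM below the lowest control value, so the groups did not overlap. The means were 148 ± 36.5 FPKM in MAT2A-inhibited morulae and 205 ± 16.3 FPKM in controls (SD, n = 3 each, exact two-sided permutation p = 0.1, the smallest that 3 against 3 can give). This is a log2 fold change of -0.50 ± 0.23 (SE, 95% interval -1.04 to 0.04, limma adjusted p = 0.750). Without MAT2A-inhibited morula 1, the lowest of the 6, it was -0.29. In controls 2 and 3 the deposited FPKM lay above its own upper confidence bound, which was 190.3 and 176 FPKM. With the lower bound in place of the FPKM, CASP6 had 105, 155 and 175 FPKM in MAT2A-inhibited morulae against 187, 181 and 167 FPKM in controls, and the groups overlapped.

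BID, the BH3 protein that caspase-8 cleaves, lies on chromosome 5 from 109639237 to 109656755. BID stood at 25.5, 22.9 and 29.7 FPKM in MAT2A-inhibited morulae and at 18.9, 17.4 and 20.5 FPKM in controls. Every MAT2A-inhibited morula was above every control, by at least 2.41 FPKM. The means were 26.0 ± 3.38 FPKM in MAT2A-inhibited morulae and 19.0 ± 1.56 FPKM in controls (SD, n = 3 each, exact permutation p = 0.1). On the log2 scale the difference was 0.43 ± 0.23 (SE, 95% interval -0.11 to 0.98, limma adjusted p = 0.772), and it lay between 0.34 and 0.52 when single libraries were left out.

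BAD, a BH3 protein that survival signals hold inactive by phosphorylation, lies on chromosome 29 from 43190201 to 43201979. BAD measured 80.0, 105.0 and 99.4 FPKM in MAT2A-inhibited morulae and 76.1, 78.9 and 38.2 FPKM in controls. The groups did not overlap, but the gap was 1.04 FPKM, and with median-of-ratios scaling they overlapped. The means were 94.8 ± 13.2 FPKM in MAT2A-inhibited morulae and 64.4 ± 22.7 FPKM in controls (SD, n = 3 each, exact permutation p = 0.1). BAD thus differed by 0.61 ± 0.31 on the log2 scale (SE, limma adjusted p = 0.767). Control 3 stood well below the other 5 libraries, and without it the log2 fold change was 0.28. With the lower bound in place of the FPKM, both BAD and BID overlapped between the groups. The upper bounds deposited for MAT2A-inhibited morula 2 were 7314 FPKM for BAD and 7253 FPKM for BID, far above the other libraries.

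BAX, the pore-forming member, was the least different of the 8. It lies on chromosome 18 from 55985202 to 55989210. BAX measured 7.51, 9.70 and 10.1 FPKM in MAT2A-inhibited morulae, against 7.01, 5.98 and 11.4 FPKM in controls. The highest and the lowest of the 6 values were both controls. Its log2 fold change was 0.18 ± 0.32 (SE, 95% interval -0.56 to 0.92, limma adjusted p = 0.900), and without the 2 libraries with Y-linked transcripts it was -0.06. With single controls left out it ran from 0.01 to 0.42.

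FAS, the death receptor, was the lowest and most uneven of the 8. It lies on chromosome 26 from 10714194 to 10748026. FAS had 1.78, 3.66 and 3.71 FPKM in MAT2A-inhibited morulae and 0.0911, 0.0820 and 4.95 FPKM in controls. Controls 1 and 2 were close to 0, whereas control 3 had the highest value of all 6 embryos, so the groups overlapped. The highest value was 60.3 times the lowest, and both were controls. For FAS the log2 fold change was 1.04 ± 0.68 (SE, 95% interval -0.54 to 2.62, limma adjusted p = 0.799). Without control 3 it was 1.86, and without control 1 or control 2 it was 0.63. Control 3 also had the highest levels of the keratins KRT8 and KRT18 of simple epithelia, at 400.5 and 363 FPKM, against at most 229.9 and 117 FPKM in the other 5 libraries. CDH1, another epithelial marker, was at 164 FPKM in control 3 and was highest in MAT2A-inhibited morula 3, at 323 FPKM. The part of these marker differences in the FAS level was not tested.

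CHEK2, the checkpoint kinase that acts downstream of ATM in the DNA damage response, lies on chromosome 17. Its assembled locus ran from 70269592 to 70305247 in MAT2A-inhibited morulae 1 and 3 and in control 3, ended at 70305360 in MAT2A-inhibited morula 2, and began at 70266818 in control 1 and at 70266811 in control 2. CHEK2 stood at 14.4, 10.9 and 16.3 FPKM in MAT2A-inhibited morulae and at 14.04, 9.95 and 5.34 FPKM in controls. Control 1 lay within the range of the treated embryos, control 2 just under it, and control 3 was the lowest. This gives a log2 fold change of 0.53 ± 0.37 (SE, limma adjusted p = 0.802), and it was 0.19 without control 3 and 0.81 without control 1.

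MCL1, a short-lived protein that keeps BAX and BAK1 inactive, lies on chromosome 3 from 20172325 to 20176965. MCL1 measured 92.2, 63.3 and 91.4 FPKM in MAT2A-inhibited morulae and 89.0, 103 and 94.8 FPKM in controls. Only MAT2A-inhibited morula 2 was outside the range of 89.0 to 103 FPKM that held the other 5 embryos. MCL1 had a log2 fold change of -0.23 ± 0.22 (SE, limma adjusted p = 0.838), and without that embryo it was -0.05. BCL2L1, which makes BCL-xL, lies on chromosome 13 from 61766805 to 61817383. BCL2L1 had 11.5, 11.1 and 19.5 FPKM in MAT2A-inhibited morulae and 9.86, 12.2 and 6.31 FPKM in controls. The highest value was a MAT2A-inhibited morula and the lowest was control 3, with the other 4 embryos between 9.86 and 12.2 FPKM. BCL2L1 differed by 0.52 ± 0.35 on the log2 scale (SE, limma adjusted p = 0.800), by 0.28 without MAT2A-inhibited morula 3 and by 0.29 without control 3.

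**Figure D2:**
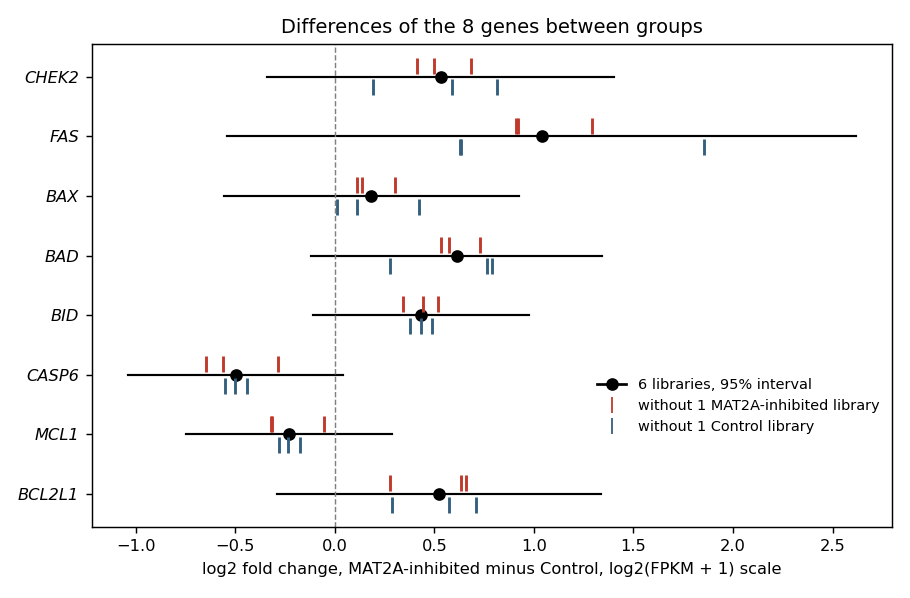
Log2 fold change of each gene, as MAT2A-inhibited minus control of log2(FPKM + 1) (horizontal axis), with the 95% interval of the limma fit as a line and ticks for fits without 1 MAT2A-inhibited (upper) or 1 control library (lower). All 8 intervals include 0, and no tick lies across 0 from its gene's point, with BAX closest at 0.01 without control 2.

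The intervals were wide. For BAD the 95% interval ran from -0.12 to 1.34 and for BCL2L1 from -0.29 to 1.33, so differences of 1 on the log2 scale lay inside both. For MCL1 it ran from -0.75 to 0.29.

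In order of mean level over the 6 embryos the genes were CASP6 (177 FPKM), MCL1 (88.9), BAD (79.6), BID (22.5), CHEK2 (11.8), BCL2L1 (11.7), BAX (8.61) and FAS (2.38). CASP6 exceeded MCL1 in 6 of 6 embryos. MCL1 exceeded BAD in 4 of 6, and CHEK2 exceeded BCL2L1 in 2 of 6, so these neighbours were not separated by their spread. BID exceeded CHEK2 and BAD exceeded BID in every embryo. CASP6, MCL1, BAD, BID and BAX stayed within 2.75-fold of their own lowest value, CHEK2 and BCL2L1 ranged over 3.04-fold and 3.09-fold, and FAS over 60.3-fold. Control 3 held the lowest value of 3 genes (CHEK2, BAD, BCL2L1) and the highest of 2 (FAS, BAX), and control 2 the lowest of 3 (FAS, BAX, BID) and the highest of 2 (CASP6, MCL1).

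The balance between death-promoting and protective transcripts was then set out for each embryo. FPKM of FAS, BAX, BAD, BID and CASP6 summed to 222, 299.8 and 321 in MAT2A-inhibited morulae and to 292, 325 and 279 in controls. MCL1 and BCL2L1 summed to 104, 74.3 and 111 FPKM in MAT2A-inhibited morulae and to 98.9, 115 and 101 FPKM in controls. MAT2A-inhibited morulae had ratios of these sums of 2.14, 4.03 and 2.89 and controls of 2.96, 2.83 and 2.76, or 3.02 ± 0.95 against 2.85 ± 0.10 (SD, n = 3 each). The controls were nearly alike, while the MAT2A-inhibited embryos lay on both sides of them. As the members were chosen with results known, no test is given for these sums.

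The make-up of the sums also varied between embryos. CASP6 supplied 48.3%, 52.9% and 55.5% of the death-promoting sum in the MAT2A-inhibited embryos and 65.0%, 68.5% and 73.1% in controls. The share of BAD was 36.0%, 35.0% and 31.0% in the MAT2A-inhibited embryos, against 26.1%, 24.3% and 13.7% in controls. Both shares restate the levels of single genes given above and are no separate result. Of the members, those of the BCL2 family were set against each other, as transcripts of BAX, BAD and BID over MCL1 and BCL2L1. MAT2A-inhibited morulae had ratios of 1.09, 1.85 and 1.25, and controls of 1.03, 0.891 and 0.693. This ratio was formed after the values were seen and is a description. Its highest value was that of MAT2A-inhibited morula 2, the embryo with the lowest MCL1. For BAX over BCL2L1 alone, MAT2A-inhibited morulae had ratios of 0.652, 0.877 and 0.517 and controls of 0.711, 0.491 and 1.80, with control 3 far above the other 5 embryos. MCL1 made up 82.4% to 88.9% of the protective sum in MAT2A-inhibited morulae and 89.4% to 93.8% in controls.

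**Figure D3:**
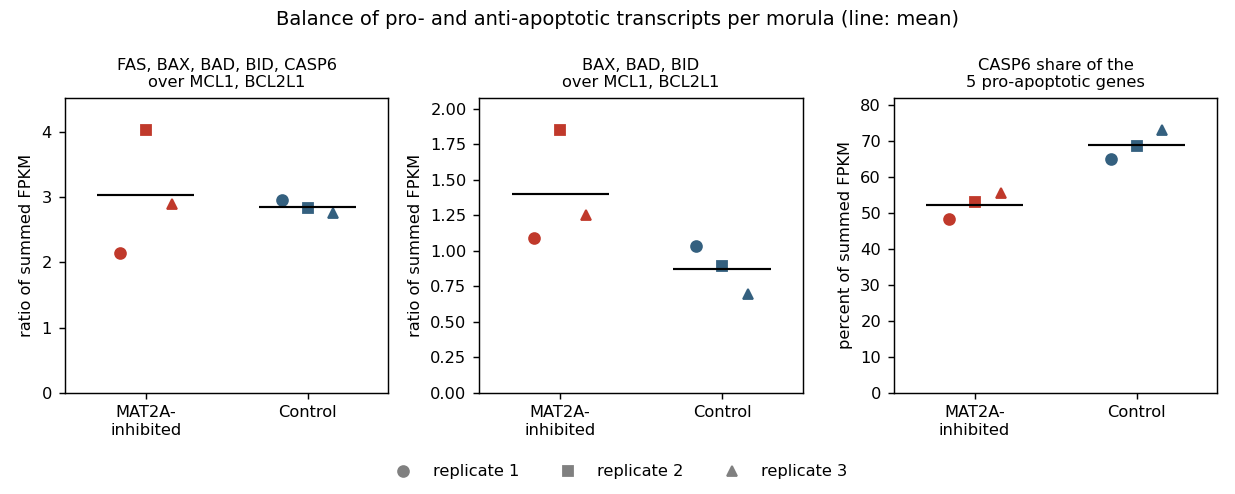
Ratio of summed FPKM of death-promoting over protective genes per morula (left, middle) and percent of the death-promoting sum supplied by CASP6 (right), 1 point per embryo with the group mean as a line. The ratio of all 5 genes spans 2.14 to 4.03 in MAT2A-inhibited morulae around the controls, and the CASP6 share is 48.3% to 55.5% in MAT2A-inhibited morulae and 65.0% to 73.1% in controls.

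The wider pathway was read from 8 lists with 89 symbols, of which 69 had values and 53 were tested. All 8 members are among the 53, so the counts below include them. Limma called 0 of the 53 over all genes tested, and 2 had an unadjusted p below 0.05, against 6.64% of all tested genes. Log2 fold changes were above 0 for 26 and below 0 for 27. The groups did not overlap for 7 of the 53, the 3 members above among them, against 13.4% of all tested genes. Both shares were at or below those over all tested genes.

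On the death receptor side, the list of 11 symbols gave 9 with values and 6 tested, 3 above and 3 below 0 with a median log2 fold change of 0.08. FADD, the adaptor that FAS recruits, stood at 44.6, 35.2 and 36.6 FPKM in MAT2A-inhibited morulae and at 35.3, 26.6 and 27.6 FPKM in controls, a log2 fold change of 0.37 ± 0.23 (SE, limma adjusted p = 0.791). The decoy receptor gene TNFRSF10D had a log2 fold change of -0.35 ± 0.54 (SE), which was above 0 in 2 of the fits without 1 library. The kinase RIPK1, the receptor TNFRSF21 and the FAS-binding protein DAXX were also tested, and their groups overlapped. RIPK1 was between 1.03 and 14.05 FPKM in MAT2A-inhibited morulae and between 2.40 and 7.33 FPKM in controls, TNFRSF21 between 11.3 and 14.2 FPKM in MAT2A-inhibited morulae and between 10.9 and 18.2 FPKM in controls, and DAXX between 9.30 and 10.6 FPKM in MAT2A-inhibited morulae and between 7.39 and 11.3 FPKM in controls. A value of 0 in these tables can be a failed estimate, since 130 of the 4874 genes that reach 10 FPKM are listed at 0 in some library. CASP8, the initiator caspase of this route, was listed at 0, 0.405 and 0 FPKM in MAT2A-inhibited morulae and at 0.0292, 0.0543 and 0.0275 FPKM in controls. Its inhibitor CFLAR was listed at 0.067 FPKM in MAT2A-inhibited morula 2, at 0.316 FPKM in control 1 and at 0 in the other 4 libraries. The ligand FASLG was listed at 0.349 FPKM or below. TRADD, an adaptor of the TNF receptor, measured 1.08, 0.538 and 1.88 FPKM in MAT2A-inhibited morulae and 0.122, 0.0727 and 0.126 FPKM in controls, and was too low to be tested. The groups did not overlap for TRADD, a gene singled out after its values were seen.

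In the BCL2 family, 6 of 11 death-promoting symbols were tested, 4 above and 2 below 0, with a median log2 fold change of 0.16. BAD and BID were the members that stood apart. BAK1, the partner of BAX, had 9.74, 3.11 and 0 FPKM in MAT2A-inhibited morulae and 0.869, 3.07 and 6.41 FPKM in controls. The 0 of BAK1 in MAT2A-inhibited morula 3 is a listed value of the same kind. BCL2L11, the BH3 protein BIM, was between 2.37 and 3.69 FPKM in MAT2A-inhibited morulae and between 1.87 and 3.87 FPKM in controls. Of 6 protective symbols only MCL1 and BCL2L1 were tested, while BCL2 and BCL2A1 were listed at 0 in all 6 libraries. The protective transcripts measured in these morulae were those of MCL1 and BCL2L1, and BCL2L2 and BCL2L10 were not analysed here.

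Among caspases and the genes of the apoptosome, 11 of 15 were tested, 5 above and 6 below 0, with a median log2 fold change of -0.07. CASP6 had a higher level than CASP2, CASP8 and CASP9 in every embryo. The initiator CASP9 stayed between 0.542 and 1.28 FPKM in MAT2A-inhibited morulae and between 0.217 and 1.301 FPKM in controls, and its scaffold APAF1 between 1.14 and 1.71 FPKM in MAT2A-inhibited morulae and between 0.729 and 4.11 FPKM in controls. CYCS, cytochrome c, averaged 4299 ± 382 FPKM in MAT2A-inhibited morulae and 5215 ± 862 FPKM in controls (SD, n = 3 each, log2 fold change -0.27, limma adjusted p = 0.782). Without control 3 its log2 fold change was -0.14. Processed copies of CYCS can share its reads, so this level is uncertain. HTRA2, a mitochondrial protease that frees caspases from their inhibitors, measured 33.1, 7.14 and 12.0 FPKM in MAT2A-inhibited morulae and 5.74, 6.00 and 7.503 FPKM in controls. Its log2 fold change of 1.06 ± 0.51 (SE, limma adjusted p = 0.750) was 0.48 without MAT2A-inhibited morula 1.

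Of 6 caspase inhibitor symbols 3 were tested, 1 above and 2 below 0. BIRC5, survivin, which also serves chromosome segregation, had 157, 151 and 135 FPKM in MAT2A-inhibited morulae and 171, 161 and 180 FPKM in controls. The groups did not overlap, with a log2 fold change of -0.21 ± 0.17 (SE, limma adjusted p = 0.815). XIAP, a direct inhibitor of caspases on chromosome X, stood at 8.68, 0.0987 and 1.58 FPKM in MAT2A-inhibited morulae and at 8.98, 4.18 and 6.85 FPKM in controls. Its 2 lowest values were those of the embryos with Y-linked transcripts, and without these 2 libraries its log2 fold change was 0.39 rather than -1.29. It was -2.14 without MAT2A-inhibited morula 1 and -0.57 without MAT2A-inhibited morula 2. Why XIAP was low in the embryos with Y-linked transcripts was not tested. BIRC6 measured 6.14, 38.4 and 6.89 FPKM in MAT2A-inhibited morulae and 5.61, 40.1 and 5.03 FPKM in controls, so 1 embryo of each group stood far above the others.

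**Figure D4:**
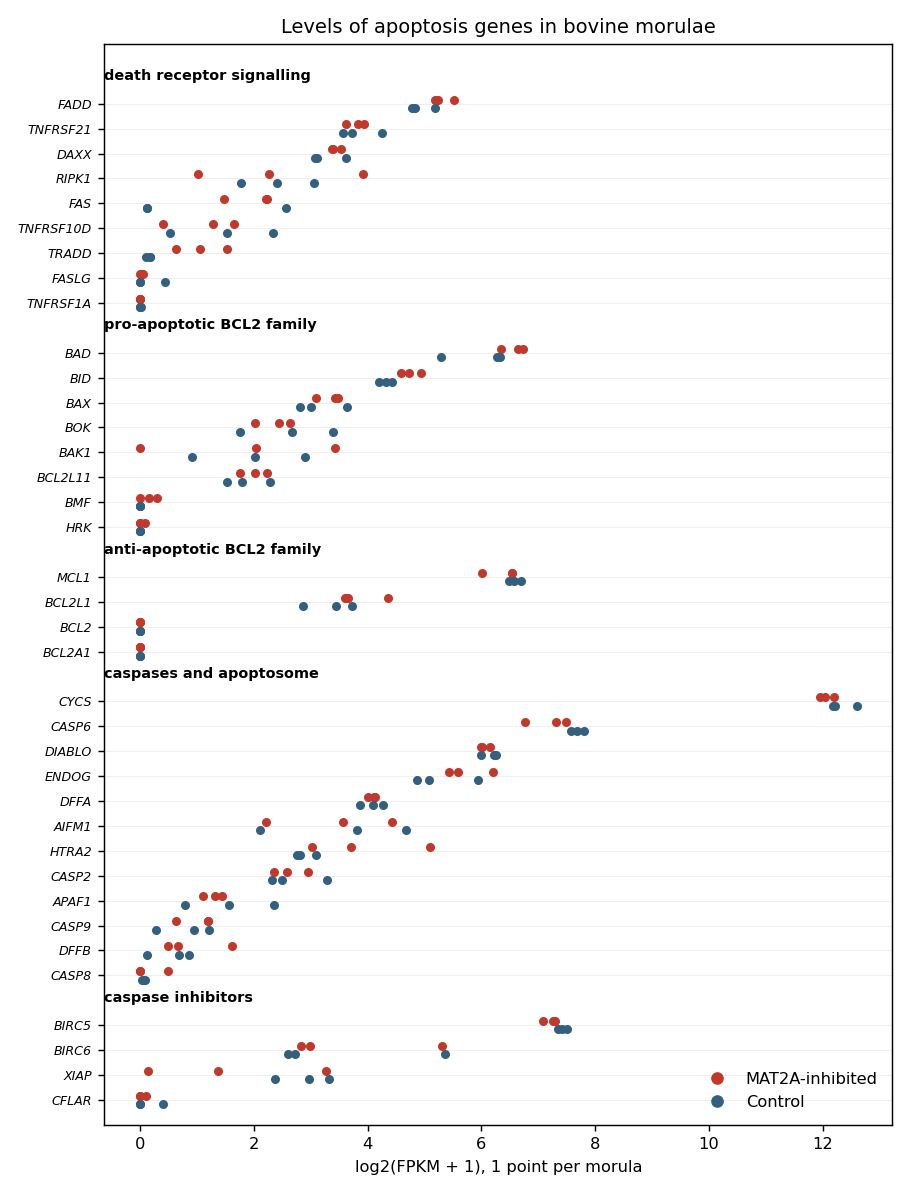
Levels of apoptosis genes reported here (rows, grouped by role and ordered by mean level) as log2(FPKM + 1) on the horizontal axis, 1 point per morula, MAT2A-inhibited above control in each row. CYCS, CASP6, BIRC5, MCL1 and BAD lie at the high end, whereas CASP8, CFLAR, BCL2 and BCL2A1 lie at or near 0 in both groups.

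In the p53 arm, 10 of 14 kinases and regulators were tested, 5 above and 5 below 0, with a median log2 fold change of -0.03. MDM2, a ubiquitin ligase that restrains the p53 pathway and is induced by it, stood at 6.74, 6.71 and 8.75 FPKM in MAT2A-inhibited morulae and at 6.80, 5.26 and 6.46 FPKM in controls. The groups overlapped for MDM2. PPM1D, a phosphatase that ends the damage signal, measured 10.6, 9.07 and 11.8 FPKM in MAT2A-inhibited morulae and 14.8, 16.4 and 12.3 FPKM in controls, without overlap (log2 fold change -0.43 ± 0.26 SE, limma adjusted p = 0.782). H2AFX, the histone phosphorylated at DNA breaks, had 54.2, 58.2 and 43.1 FPKM in MAT2A-inhibited morulae and 33.9, 45.4 and 31.8 FPKM in controls (log2 fold change 0.48 ± 0.24 SE, limma adjusted p = 0.759). ATM, the kinase upstream of CHEK2, stood at 12.7, 4.97 and 5.16 FPKM in MAT2A-inhibited morulae and at 8.81, 13.7 and 9.23 FPKM in controls. CHEK1, the kinase of stalled replication, measured 113, 146 and 71.1 FPKM in MAT2A-inhibited morulae and 163, 239.9 and 65.0 FPKM in controls, so in every embryo its level was above that of CHEK2.

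Of 24 p53 target symbols 17 had values and 12 were tested, 7 above and 5 below 0, with a median log2 fold change of 0.14. The groups overlapped for all 12. CDKN1A, the cell cycle inhibitor p21 and the best known target, was between 0.141 and 0.274 FPKM in MAT2A-inhibited morulae and between 0.125 and 0.304 FPKM in controls. CDKN1A was below the filter and was not tested. GADD45A had 14.5, 11.8 and 14.8 FPKM in MAT2A-inhibited morulae and 11.4, 38.9 and 18.8 FPKM in controls, with a log2 fold change of -0.55 that was -0.10 without control 2 and -0.94 without control 1. PLK2 had a log2 fold change of 0.41 ± 0.34 (SE), which was 0.17 without MAT2A-inhibited morula 3 and 0.22 without control 1. CCNG1 and PERP, targets with high levels here, averaged 129 ± 15.8 and 90.5 ± 9.54 FPKM in MAT2A-inhibited morulae and 113 ± 24.9 and 95.2 ± 23.5 FPKM in controls (SD, n = 3 each).

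The unfolded protein response can also lead to cell death, through the kinase EIF2AK3 (PERK) and the transcription factors ATF4 and DDIT3 (CHOP). In this branch 6 genes were tested, 3 above and 3 below 0, and both genes with an unadjusted p below 0.05 belong here. HSPA5, the chaperone of the endoplasmic reticulum that holds PERK inactive, averaged 223 ± 66.1 FPKM in MAT2A-inhibited morulae and 72.5 ± 15.3 FPKM in controls (SD, n = 3 each, log2 fold change 1.58 ± 0.28 SE, limma adjusted p = 0.326). EIF2AK3 stood at 3.38, 3.97 and 6.32 FPKM in MAT2A-inhibited morulae and at 1.72, 0.435 and 3.24 FPKM in controls (log2 fold change 1.09 ± 0.46 SE, limma adjusted p = 0.746). For both genes every MAT2A-inhibited morula was above every control. The log2 fold change of EIF2AK3 was 0.68 without control 2. DDIT3, a transcription factor known to promote death under prolonged stress, measured 26.1, 25.2 and 67.6 FPKM in MAT2A-inhibited morulae and 47.0, 80.0 and 70.8 FPKM in controls, a log2 fold change of -0.84 ± 0.42 (SE, limma adjusted p = 0.753). MAT2A-inhibited morula 3 lay within the range of the controls, and without it the log2 fold change of DDIT3 was -1.30. The fold changes of HSPA5 and EIF2AK3 were thus opposite in sign to that of DDIT3, and none of these genes passed the test. The other tested genes of the branch, ATF4, TRIB3 and PPP1R15A, had log2 fold changes of 0.18, -0.19 and -0.02. Their groups overlapped.

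**Figure D5:**
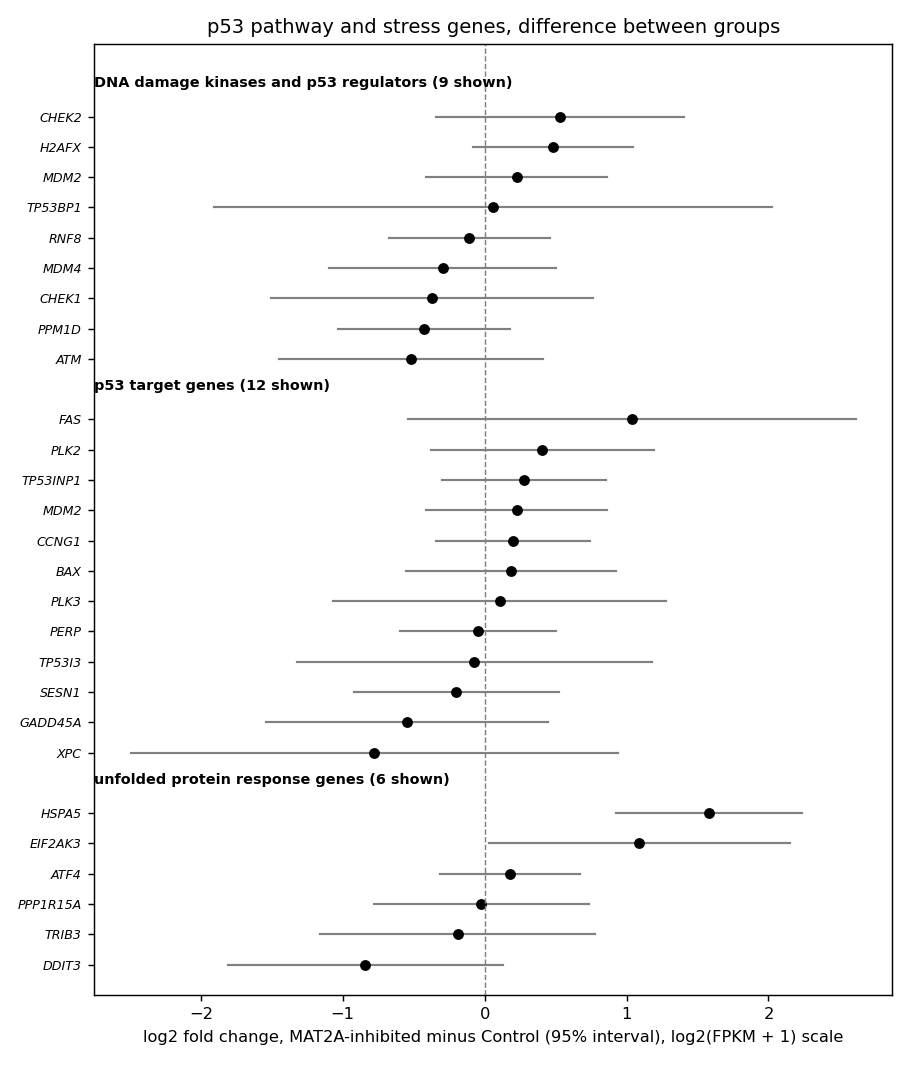
Log2 fold changes with 95% intervals of tested genes of the p53 pathway and of the unfolded protein response, as MAT2A-inhibited minus control of log2(FPKM + 1). The intervals of HSPA5 and EIF2AK3 lie above 0, those of CHEK2, FAS, BAX and all other p53 pathway genes shown include 0, and DDIT3 has a point at -0.84.

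For each of the 8 genes the most alike profile over the 6 libraries was looked for among the other 7318 tested genes, as the smallest root mean square difference of log2(FPKM + 1) after centring each gene on its own mean. SCAMP2 was nearest to BAX (0.0486), FOXP4 to BID (0.0524), FDFT1 to CASP6 (0.0752) and SRSF2 to MCL1 (0.0788). FSTL1 was nearest to BAD (0.114), AMT to BCL2L1 (0.118), ZNF197 to CHEK2 (0.131) and SERPINA5 to FAS (0.229). None of the 8 was nearest to another of them. The likeness rests on 6 libraries and is a description.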

How the data were processed

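Single morulae of 2 groups, 3 per group, were sequenced as polyA RNA. Per the submitters' processing notes, the genome build was bosTau8 and the tools were TopHat2 2.0.14 and Cufflinks 2.2.1. The authors deposited 1 gene table per library in FPKM with confidence bounds, per the file headers, and the sources used here do not give settings or annotation. In each library 8.28% to 10.6% of annotated rows hold an FPKM outside the bounds given with it, among them 8 of the 48 values of the 8 genes. Locus starts count from 0 in the files and are given from 1 here.

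Rows of 1 symbol were summed. Of 13295 symbols in all libraries, 38 sharing a merged locus and 72 with a status other than OK were left out. Depth was found from bounds of unannotated loci of 100 to 300 bases, where 99.7% to 99.9% of values were whole fragments within 0.05. No counting interval is given, since gene counts were not recovered. Values as log2(FPKM + 1) of the 7319 genes that reached 1 FPKM in 3 or more libraries went into limma 3.58.1 (R 4.3.3), with a mean-variance trend and a two-sided test, with Benjamini-Hochberg adjustment over all of them. Single genes were also compared with an exact permutation test in SciPy 1.17.1. On simulated data, 200 of the 7319 genes were changed in 5 runs, all drawn from genes above the median level. The fit found 23.7% of genes set to 2-fold, 73.3% of those set to 4-fold and 89.5% of those set to 8-fold. It made 7.8 false calls per run. By mean FPKM, CHEK2, BCL2L1, BAX and FAS lay at percentiles 48.3, 48.2, 41.2 and 13.95 of the tested genes. The rates may thus not hold for these genes.

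The members and lists were chosen with earlier results of these data known. Named are the 8 genes, the 3 genes with the smallest p of each list, a set of core pathway genes, MAT2A and the most alike gene of each member; 2 genes of the lists are counted there but not reported here. TRADD, FASLG, RIPK1, TNFRSF21, DAXX, CASP2, BCL2L11, BCL2A1, CCNG1, PERP, ATF4, TRIB3, PPP1R15A, the keratins, EIF1AY, DDX3Y, USP9Y and the examples from marker lists were named after their values were seen. Alternatives were 3 scalings, 2 other filters, array weights, a pseudocount of 0.1, a fit with no trend, a replicate block, 1 row per symbol, no genes with a 0 and libraries left out, and, added after the data were seen, the lower bound in place of the FPKM.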

Additional observations from a re-analysis of the deposited data

How the results depend on the processing

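No setting called any of the 8 genes or any gene of the pathway lists. The count of members above 0 was 6 of 8 in the reported fit and with every library left out in turn. It was 5 with a mean of at least 5 FPKM and 4 without the 2 libraries with Y-linked transcripts, both without FAS, and 6 in the other settings. The number of genes called over the whole table was 3. It was 1 with no filter on low values, 1 with a mean of at least 5 FPKM, 1 with the replicate block, 5 with array weights, 0 without genes that have a 0 and 0 without the 2 libraries with Y-linked transcripts, and ran from 0 to 8 with single libraries left out, 8 being without control 3 and 0 without any 1 of the MAT2A-inhibited morulae. The cause was not tested. Deviations from the group means of same-numbered samples had correlations of 0.0456, 0.103 and 0.191, above 0.1 in 2 of 3 pairs. Those of samples with different numbers ran from -0.212 to 0.102. Whether the numbers pair the samples cannot be told from these few values. The block moved the count at an unadjusted p below 0.05 to 572, against 486 without it. The difference in the ratio of death-promoting to protective sums, 0.176, ran from -0.329 to 0.617 with single libraries left out. Of 433 values of single genes under other settings, 423 kept their direction. The 2 other filters, the fit with no trend, the replicate block and the fit without genes that have a 0 cannot alter a fold change. The count thus overstates how far the directions were put to the test. Without the 2 libraries with Y-linked transcripts, a fit with 1 treated embryo whose spread is assumed to be like that of the controls, BAX was at -0.0551, XIAP at 0.387, BIRC6 at -0.723 and MAT2A at 0.262, and FAS was below the filter. With single libraries left out, BIRC6 ran from -0.65 to 1.05, TNFRSF10D from -0.819 to 0.0832 and MAT2A from -0.307 to 0.07695. FAS was not tested with a mean of at least 5 FPKM. With 3 embryos a group, differences near 2-fold were mostly below what the fit recovers on simulated data. Only genes above the median level were changed there.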
